A study of Mus musculus with 30 samples.

Results

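The 10 genes described here encode proteins of the BCL-2 family and 1 endoplasmic reticulum protein, Tmbim6, that acts beside them. They were found by symbol among the 56941 gene rows of the count files and comprise 3 anti-apoptotic members (Bcl2, Bcl2l1 and Mcl1), the pore-forming effectors Bax and Bak1, 4 BH3-only members (Bcl2l11, Bid, Bad and Pmaip1) and Tmbim6. Of the 10, 9 had enough reads to be tested and Pmaip1 had not. The cells were mHypoA-2/12 (Clu177), a single clone of adult mouse hypothalamic cells immortalized with SV40 large T antigen, and all of them therefore carried that antigen, vehicle cultures included. Cultures received cannabidiol (CBD), a phytocannabinoid of Cannabis sativa, at 0.325, 0.75, 1.5 or 3 µM, or the vehicle, 0.1% DMSO, which the CBD cultures contained too. RNA was taken after 6 h or 24 h, and each of the 10 combinations of dose and time had 3 libraries. The comparisons address whether transcripts of the pro- and anti-apoptotic members differed between CBD and vehicle, between doses and between times.

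Proteins of the BCL-2 family decide whether the outer mitochondrial membrane is opened in apoptosis. Bax and Bak1 form the pores, the anti-apoptotic members hold them and the BH3-only proteins back, and the BH3-only proteins are the stress-responsive triggers that engage either side. Much of this control is exerted on the proteins, by phosphorylation, cleavage and degradation, and is not measured by transcript counts.

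The libraries were made with QuantSeq 3′ mRNA-Seq, which yields 1 read from the 3′ end of each transcript, so levels are given as CPM (reads on a gene, scaled to a common size of library by TMM factors) without division by length. Reads on genes ran from 1839621 to 4420675 per library, and 17.7% to 22.2% of the counted reads lay outside genes. Library A3, a vehicle library of 6 h, differed from the other 2 of its group in most members and is named below wherever a value rests on it. It also differed in depth, with 3574833 reads on genes against 1839621 in A1 and 1919498 in A2. Of its counted reads 17.9% lay outside genes, against 21.4% in A1 and 20.8% in A2. The label of the line as hypothalamic neurons was checked against its markers: 5 of 10 neuronal markers had a mean of at least 1 CPM over the 30 libraries, the means of Rbfox3, Snap25, Syp, Npy and Agrp were below it, and the 7 mesenchymal markers summed to 9038 to 11954 CPM against 101 to 152 CPM for the 10 neuronal markers. Astrocyte markers summed to at most 11.6 CPM, oligodendrocyte markers to at most 4.12 CPM and endothelial markers to at most 2.94 CPM. The 4 microglial markers summed to 154 to 367 CPM, nearly all of it Tmem119, and the 3 markers of neural progenitors to 90.5 to 207 CPM.

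Transcripts of Bad were the most abundant of the 10, at 179 ± 28.8 CPM (SD over the 30 libraries of all groups), and those of Pmaip1 the least. Bad encodes a BH3-only protein that phosphorylation by survival kinases keeps inactive. Its gene overlaps Gpr137 on the opposite strand, and the strand setting of the counting is not given. Reads of Bad and Gpr137 may therefore not be told apart where they overlap. Bad was followed by Tmbim6 (148 ± 25.5 CPM), Mcl1 (145 ± 20.8 CPM) and Bcl2l1 (136 ± 15.7 CPM). These 4 levels were close to each other: Bad exceeded Tmbim6 in 22 of 30 libraries, Tmbim6 exceeded Mcl1 in 18 and Mcl1 exceeded Bcl2l1 in 19. Bcl2l1 stood above Bcl2 (60.9 ± 8.42 CPM) in all 30 libraries. Bcl2, Bcl2l11 (50.7 ± 15.2 CPM) and Bak1 (38.0 ± 10.5 CPM) came next, in an order that differed between the times. At 6 h Bcl2 exceeded Bcl2l11 in 14 of 15 libraries and Bcl2l11 exceeded Bak1 in 6, whereas at 24 h Bcl2 exceeded Bcl2l11 in 5 of 15 and Bcl2l11 exceeded Bak1 in 14. Bad likewise exceeded Tmbim6 in 8 of 15 libraries at 6 h and in 14 of 15 at 24 h. Bak1 exceeded Bax (11.2 ± 3.82 CPM) in all 30 libraries, whereas Bax exceeded Bid (10.7 ± 5.12 CPM) in only 15 of 30.

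Pmaip1 encodes NOXA, a BH3-only protein that binds MCL-1. It was at the limit of detection, with 16 reads over the 30 libraries (0.190 CPM of all reads together), 0 reads in 20 libraries and no more than 4 in any. A count of 0 allows up to 3 reads, that is 0.679 to 1.63 CPM depending on the library, and these limits cover counting error only. No fold change is given for it.

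**Figure D1:**
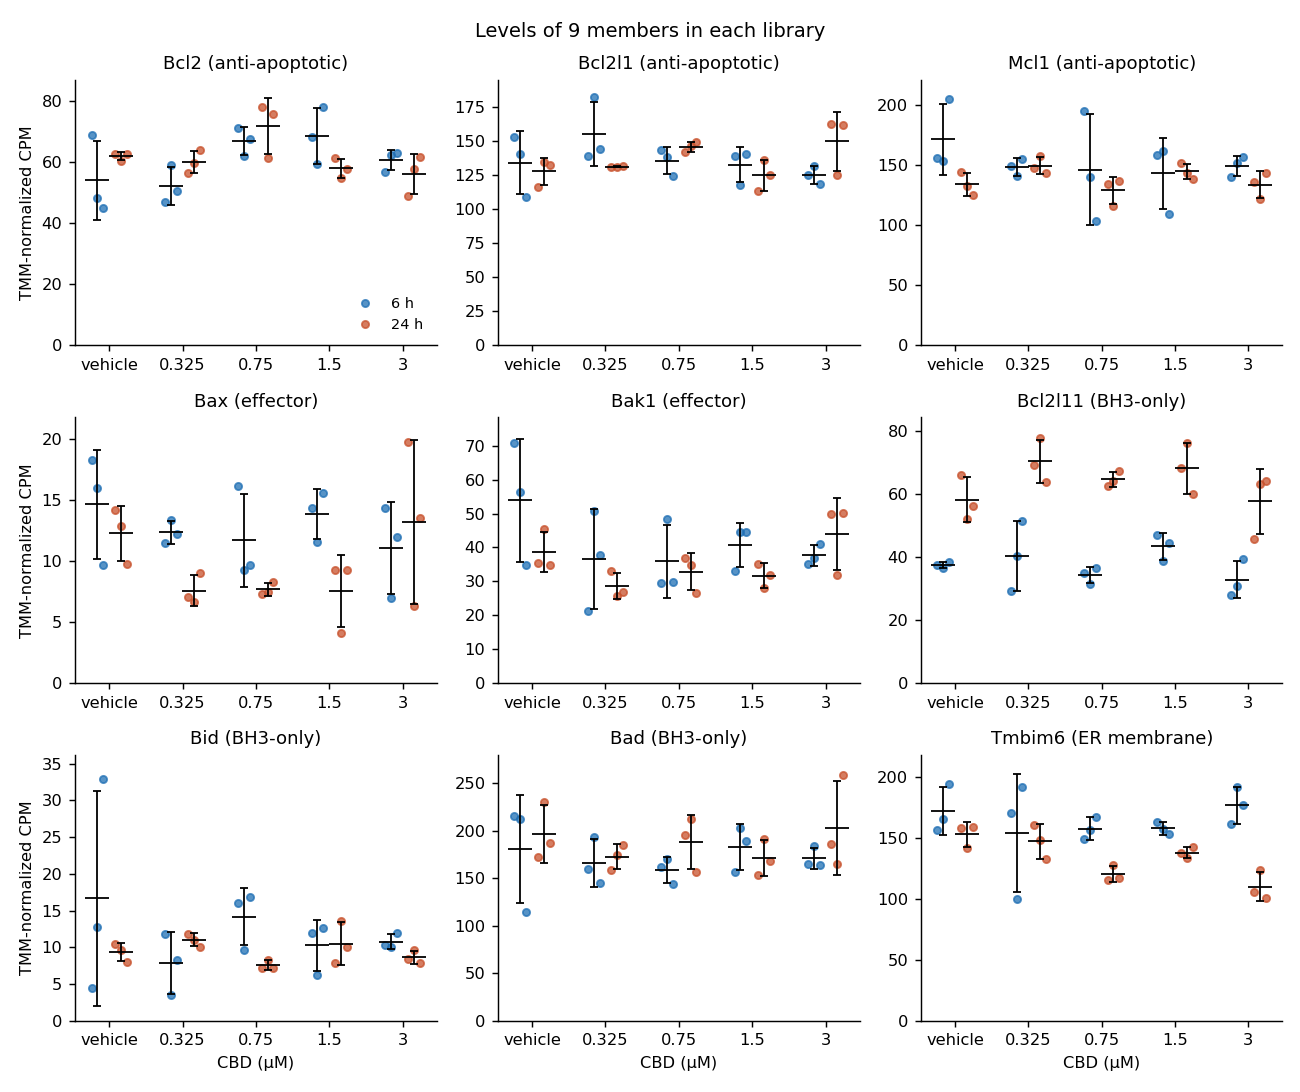
TMM-normalized CPM (y axis, from 0) of 9 members in each of the 30 libraries, by CBD dose in µM (x axis) and time (blue 6 h, red 24 h); black bars show mean ± SD of 3 libraries. Bcl2l11 is higher at 24 h than at 6 h at each dose, and the highest value of Bid, 32.9 CPM, is a single vehicle library of 6 h.

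Among the anti-apoptotic members, Bcl2 (ENSMUSG00000057329, GRCm38 chr1:106538178-106714274, minus strand) encodes the founding member of the family, held in the mitochondrial and endoplasmic reticulum membranes. Its vehicle libraries of 6 h had 68.6, 48.3 and 44.7 CPM, and those of 24 h had 62.6, 60.4 and 62.6 CPM. CBD libraries ran from 46.7 to 77.7 CPM at 6 h and from 48.7 to 77.9 CPM at 24 h, and overlapped with vehicle at both times. Of the 12 CBD libraries, 11 lay above the vehicle median at 6 h, whereas 9 lay below it at 24 h. How many of all genes split in this way was not counted. The log2 fold changes for the mean of the doses were 0.20 (SE 0.14) at 6 h and −0.03 (SE 0.11) at 24 h. Bcl2l1 (ENSMUSG00000007659, chr2:152780668-152831728, minus strand), which encodes BCL-XL, had the narrowest spread of the 9 relative to its level, from 108.8 to 182 CPM. Mcl1 (ENSMUSG00000038612, chr3:95658788-95663176, plus strand) encodes a protein that is made and degraded quickly. Its lowest, median and highest values were 104, 153 and 205 CPM at 6 h and 116, 139 and 157 CPM at 24 h, and the highest one belonged to library A3.

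The effectors Bax (ENSMUSG00000003873, chr7:45461697-45466898, minus strand) and Bak1 (ENSMUSG00000057789, chr17:27019810-27029009, minus strand) differ in that BAX rests in the cytosol and BAK in the mitochondrial outer membrane. Bax rested on few reads, 10 to 61 per library, and Bak1 on 54 to 153. Bax overlaps Gm45808 on the same strand, as Bid does Gm44260 and Bcl2 does Gm37053 and Mir3473f. Whatever the strand setting, reads in such an overlap may have been counted as ambiguous, so these levels may be too low. Bak1 overlaps Ggnbp1 on the opposite strand, and since the strand setting of the counting is not given in the sources used here, reads of the 2 genes may not be told apart where they overlap. Bcl2l11 (ENSMUSG00000027381, chr2:128126038-128162547, plus strand) encodes BIM, which binds all anti-apoptotic members and activates the effectors directly. Bax is a textbook target of p53, and Bcl2l11 of FOXO factors. Of the 10 members, 8 had a start site in the RefSeq promoter table (GRCm38.p6), with 12 start sites in all. The 250 bases before each start were searched on both strands for the p53 half-site and for GTAAACA, the core bound by FOXO factors; the 2 motifs did not overlap in a member. The half-site was found in Bax alone among the 8 members and in 7.13% of 32851 promoters, and GTAAACA in Bcl2l11 alone and in 3.17% of promoters. Those 2 windows, the only ones with a match, are shown with the motif in capitals. Bax is at chr7:45466899-45467148 on the minus strand and Bcl2l11 at chr2:128125788-128126037 on the plus strand, both read 5′ to 3′. The other start site of Bcl2l11, at chr2:128127325-128127574, held no match. Bak1 and Tmbim6 also carry differences described below. The Bak1 window held neither motif, and Tmbim6 had no start site in the promoter table. Whether a motif has a part in any difference was not tested. A match is a stretch of letters and not a measured binding site.
Bax: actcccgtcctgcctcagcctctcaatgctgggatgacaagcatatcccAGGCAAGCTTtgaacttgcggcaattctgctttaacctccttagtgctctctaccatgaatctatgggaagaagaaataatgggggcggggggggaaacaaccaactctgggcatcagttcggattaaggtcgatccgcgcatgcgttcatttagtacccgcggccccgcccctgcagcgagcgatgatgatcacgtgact
Bcl2l11: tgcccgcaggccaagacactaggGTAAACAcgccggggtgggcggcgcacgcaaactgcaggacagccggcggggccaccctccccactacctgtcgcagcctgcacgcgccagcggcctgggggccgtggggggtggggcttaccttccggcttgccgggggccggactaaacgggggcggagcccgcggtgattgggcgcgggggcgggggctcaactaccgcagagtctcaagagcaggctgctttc

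After 6 h, no member passed the test between CBD and vehicle. In edgeR's quasi-likelihood test at an adjusted p below 0.1, 0 of the 9 members were called at 0.325, 0.75, 1.5 or 3 µM, where 0.2%, 0.0749%, 0.0999% and 0.05% of the 12012 genes tested were called. For the mean of the 4 doses it was again 0 of 9, against 0.749% of all genes. At an unadjusted p below 0.05 there were 1, 1, 0 and 0 members at the 4 doses and 2 for their mean, where 8.80%, 7.79%, 7.91%, 7.26% and 10.3% of all genes had such a p. DESeq2 called 0 members in each of these comparisons, and 71, 48, 56, 48 and 132 genes in all. The lowest adjusted p of a member was 0.388, for Bak1 in the mean of the doses. Fold changes relative to vehicle had standard errors of 0.15 to 0.48 on the log2 scale at single doses and 0.12 to 0.35 for their mean, and the 95% confidence intervals of single doses are shown in the plot of fold changes by dose. In a bulk culture, fewer cells with a transcript and less of it per cell cannot be told apart.

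Of the 9 members, 7 had negative log2 fold changes in the mean of the 4 doses at 6 h, among them all 5 pro-apoptotic members tested. None of these was called, and the value of Bcl2l11 was −0.01 (SE 0.16). The median over the 9 was −0.10 against −0.02 over all genes, and the share of all genes with a negative value was not counted. In Bak1 and Bad, all 12 CBD libraries lay below the vehicle median, which is the value of 1 of 3 libraries. How many of all genes split in this way was not counted, and neither member was called. The vehicle libraries of Bak1 had 70.8, 56.3 and 34.8 CPM, and its CBD libraries ran from 21.4 to 50.6 CPM. The 2 sides overlapped because the lowest vehicle value, that of library A3, lay inside the CBD range. The log2 fold change was −0.50 (SE 0.21, adjusted p = 0.388). Without A3 it was −0.76 (SE 0.21, adjusted p = 0.0703), the only one of 22 alternatives in which Bak1 was called in that comparison.

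Bid, a BH3-only protein activated when caspase-8 cleaves it (ENSMUSG00000004446, chr6:120891930-120916853, minus strand), overlaps Bcl2l13 on the opposite strand. Its vehicle libraries of 6 h had 4.42, 12.7 and 32.9 CPM, and the 12 CBD libraries 3.53 to 16.8 CPM with a median of 11.1. The highest value was again that of library A3, and the other vehicle libraries lay within the CBD range. The log2 fold change of −0.75 (SE 0.35, adjusted p = 0.454) for the mean of the doses turned to 0.29 without A3. At 0.325 µM it was −1.17 (SE 0.48, adjusted p = 0.461) and −0.13 without A3, and when the percentage of reads off genes entered the fit the adjusted p at that dose was 0.0843. As for Bak1 and Ggnbp1, reads of Bid and Bcl2l13 may not be told apart where they overlap.

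Bad (ENSMUSG00000024959, chr19:6941861-6951899, plus strand, overlapping Gpr137 on the opposite strand) had 215, 212 and 115 CPM in vehicle libraries of 6 h, the last in A3, and 144 to 202 CPM in the CBD libraries. Its log2 fold change for the mean of the doses was −0.09 (SE 0.14). Bcl2l11 was the member with the most even vehicle values at 6 h, 37.6, 36.6 and 38.4 CPM, and these lay inside its CBD range of 28.02 to 51.3 CPM. Of the 12 CBD libraries, 6 lay above and 6 below all vehicle libraries. Tmbim6 (ENSMUSG00000023010, chr15:99392882-99410049, plus strand) encodes BAX inhibitor-1, a channel-like protein of the endoplasmic reticulum that lowers its calcium content. It had 157, 165 and 194 CPM in vehicle and 99.7 to 191 CPM in CBD libraries of 6 h, with overlapping ranges and a log2 fold change of −0.10 (SE 0.13).

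No member passed the tests among doses at 6 h. The test of any difference among the 4 doses called 0 of 9 members and 0% of all genes (452 genes at an unadjusted p below 0.05, of which 0 were members, and 0 genes by DESeq2), and that of 3 µM against the 3 lower doses likewise called 0 of 9 and 0% (624 genes at an unadjusted p below 0.05, none of them a member, and 0 by DESeq2).

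**Figure D2:**
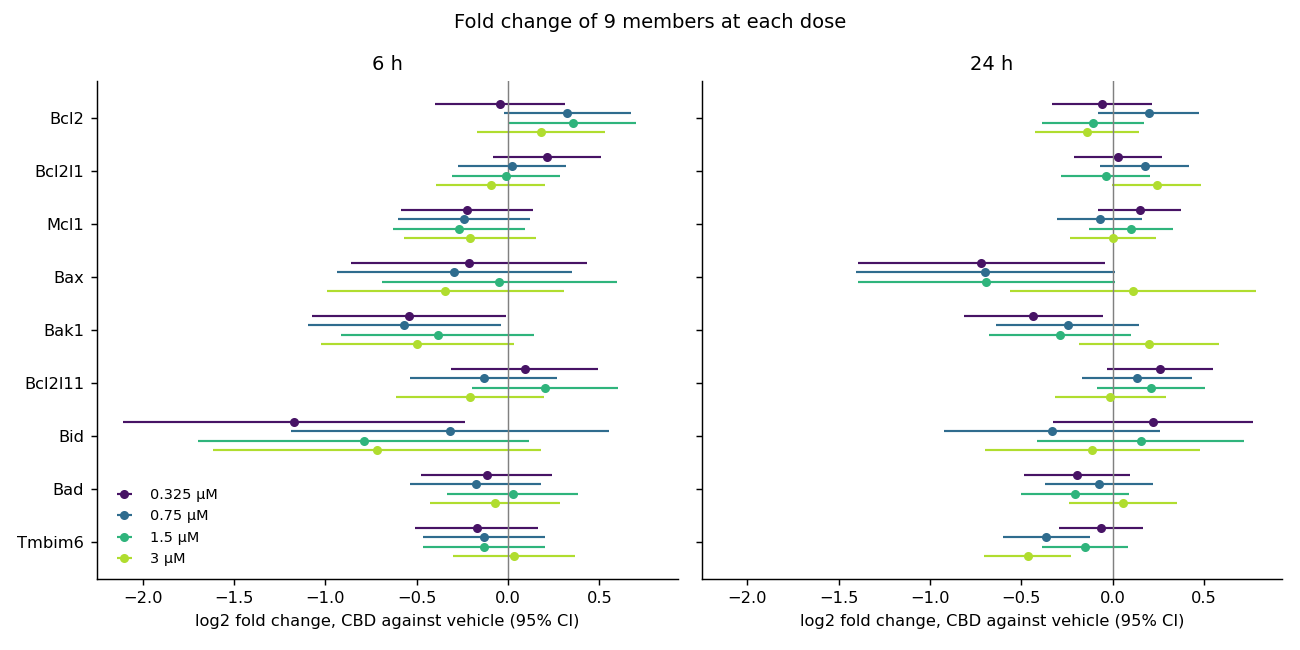
log2 fold change (x axis) of 9 members at each CBD dose against vehicle of the same time, left 6 h and right 24 h. The 95% confidence intervals use standard errors derived from the F statistic of edgeR's test. At 24 h, Bax and Bak1 lie below 0 at the 3 lower doses and above 0 at 3 µM, and Tmbim6 lies lowest at 3 µM (−0.47); no member passed an adjusted p below 0.1 at a dose.

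After 24 h, again 0 of 9 members were called at 0.325, 0.75, 1.5 or 3 µM, where 0.066%, 0.0825%, 0.0413% and 0.00825% of the 12118 genes tested were called, and 0 of 9 for the mean of the doses against 0.107% of all genes. At an unadjusted p below 0.05 there were 2, 1, 0 and 1 members at the 4 doses and 1 for their mean, where 8.33%, 7.63%, 7.34%, 9.16% and 6.73% of all genes had such a p. DESeq2 called 0 members in each, and 17, 40, 19, 13 and 29 genes in all. Standard errors were 0.12 to 0.36 on the log2 scale at single doses and 0.09 to 0.27 for their mean.

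Tmbim6 had the lowest p of the members at 24 h. Its vehicle libraries had 158, 141 and 158 CPM. The libraries of 0.325 µM had 160, 148 and 132 CPM, those of 0.75 µM 116, 128 and 117 CPM, those of 1.5 µM 138, 133 and 142 CPM and those of 3 µM 106, 123 and 101 CPM. All libraries of 0.75 and 3 µM lay below all vehicle libraries, whereas the libraries of 0.325 µM overlapped with vehicle. The share of all genes with such a split at a single dose was not counted, and Tmbim6 was called at neither dose. The levels did not follow the order of the doses throughout, since all 3 libraries of 1.5 µM lay above those of 0.75 µM. The log2 fold changes were −0.06 (SE 0.12), −0.36 (SE 0.12, adjusted p = 0.401), −0.15 (SE 0.12) and −0.47 (SE 0.12, adjusted p = 0.345) in order of dose. Over the 4 doses together, the test for a difference gave an adjusted p of 0.180. Without library A17, 1 of the 3 µM libraries, Tmbim6 at 3 µM was called (−0.56, SE 0.14, adjusted p = 0.0462). Over the 23 alternatives its adjusted p ranged from 0.0462 to 0.979. The study, which used DESeq2 at the same threshold, lists Tmbim6 among genes of apoptosis altered mainly at 24 h. Its text names neither dose nor direction. DESeq2 as run here called Tmbim6 at no dose against vehicle, and the reason for this difference was not tested.

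Bax at 24 h had 14.1, 12.9 and 9.71 CPM in vehicle. The libraries of 0.325 µM had 7.03, 6.62 and 8.98 CPM, those of 0.75 µM 7.25, 7.48 and 8.24 CPM, those of 1.5 µM 9.23, 4.12 and 9.23 CPM and those of 3 µM 19.7, 6.26 and 13.5 CPM. The 9 libraries of the lower doses all lay below the 3 vehicle libraries, and the libraries of 3 µM spanned both ranges. Bax was the only one of 9 members whose lower-dose and vehicle libraries did not overlap, a split seen in 2.58% of all genes and chosen after the values were seen. Its log2 fold changes against vehicle were −0.72 (SE 0.35, adjusted p = 0.586), −0.70 (SE 0.36), −0.69 (SE 0.36) and 0.11 (SE 0.34) in order of dose, and none was called. The mean fold change over the 4 doses was −0.50 (SE 0.27, adjusted p = 0.792).

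Bak1, too, had a lower mean at each of the 3 lower doses than in vehicle and its highest mean at 3 µM. Vehicle libraries of 24 h had 35.5, 45.5 and 34.8 CPM, the 9 libraries of the lower doses ran from 25.8 to 37.0 CPM with a median of 31.9, and those of 3 µM had 49.9, 31.7 and 50.2 CPM. The lower-dose range reached into that of vehicle, and A17 was the low library of 3 µM for Bak1 as it was for Bax. The log2 fold changes against vehicle were −0.43 (SE 0.19, adjusted p = 0.561), −0.25 (SE 0.20), −0.29 (SE 0.20) and 0.20 (SE 0.20). Of the anti-apoptotic members over the 4 doses at 24 h, the log2 fold change of Bcl2 lay between −0.14 and 0.20, that of Bcl2l1 between −0.04 and 0.24 and that of Mcl1 between −0.07 and 0.15.

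Between 3 µM and the 3 lower doses at 24 h, Bak1 and Bax were higher at 3 µM. This contrast, which does not use the vehicle libraries except for the estimate of spread, called 2 of 9 members, where 10.5% of the 12118 genes were called and 6.36% were higher at 3 µM. Bak1 was higher by a log2 fold change of 0.52 (SE 0.16, adjusted p = 0.0524) and Bax by 0.81 (SE 0.29, adjusted p = 0.0915). In both genes 2 of the 3 libraries of 3 µM lay above all 9 libraries of the lower doses and A17 lay within them. How many of all genes split in this way was not counted. Tmbim6 was on the other side, with 109.9 ± 11.8 CPM at 3 µM (n = 3) against 134.9 ± 14.3 CPM (n = 9), a log2 fold change of −0.27 (SE 0.10, adjusted p = 0.111) that missed the threshold. Tmbim6 was called in the same comparison by DESeq2 (adjusted p = 0.0817), which called Bak1 and Bax too and 10.6% of all genes, and by edgeR with at least 10 reads required in every library (adjusted p = 0.0886). The remaining 6 members lay between −0.21 and 0.21, and the median over the 9 was −0.06 against 0.01 over all genes.

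The number of members called depended on single libraries and on a technical measure. It was 0 without A16 and 0 without A18, where 0.543% and 3.55% of all genes were called, and 5 without A17, where 18.3% were called; the 5 then included Bad, Bcl2l1 and Tmbim6. The log2 fold change of Bax was 0.38 without A16, 0.79 without A18 and 1.14 without A17, and that of Bak1 0.41, 0.41 and 0.70. Over the 15 fits with 1 library left out, Bak1 was called in 13 and Bax in 4. The percentage of reads off genes moved with the groups: it was 20.8% to 21.7% in the 3 µM libraries, 18.7% to 20.4% in those of the lower doses and 20.9% to 22.2% in vehicle. With this percentage in the fit the log2 fold change of Bak1 was 0.51 (SE 0.31, adjusted p = 0.538) and that of Bax 1.30 (SE 0.54, adjusted p = 0.344), values of like or larger size with wider errors, and 0 members and 0.248% of all genes were called. With log2 of the reads on genes in the fit instead they were 0.52 (SE 0.20, adjusted p = 0.296) and 0.98 (SE 0.35, adjusted p = 0.261), and 0 members and 0.182% of all genes were called. Mesenchymal markers summed to 9317 to 11183 CPM at 3 µM and 9038 to 9619 CPM at the lower doses. The marker genes called were S100a4 (0.45, SE 0.12), Sox2 (1.32, SE 0.38) and Cx3cr1 (0.95, SE 0.31), all higher at 3 µM. Their lists did not all go with them. The median log2 fold change was −0.07 over the 7 mesenchymal, −0.06 over the 3 microglial and 0.61 over the 3 progenitor markers tested. The part of these in the result was not tested.

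**Figure D3:**
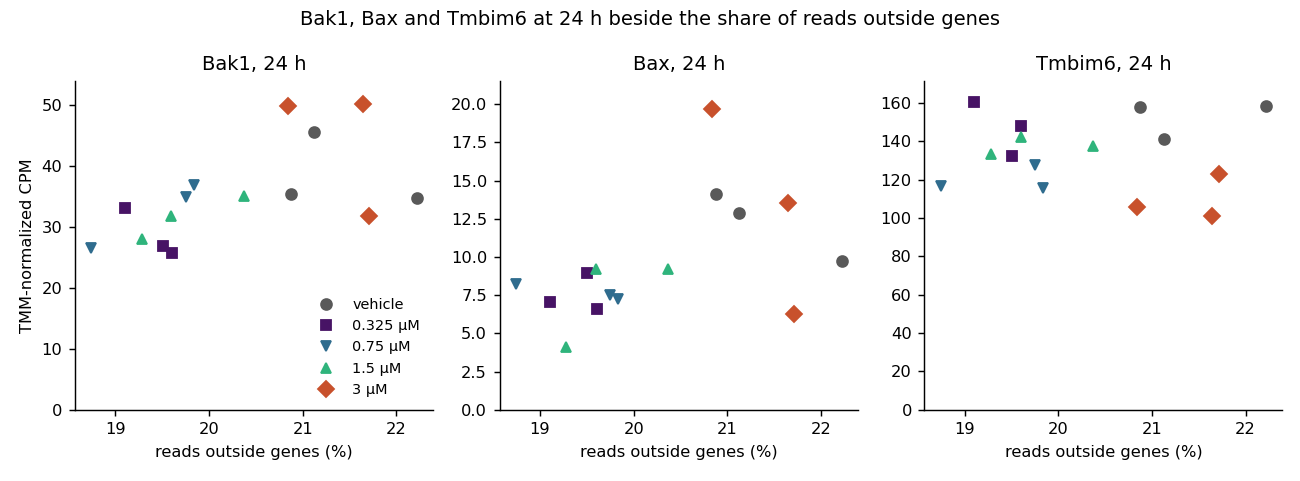
TMM-normalized CPM (y axis, from 0) of Bak1, Bax and Tmbim6 in the 15 libraries of 24 h against the percent of counted reads outside genes (x axis), with symbols by dose. The 3 µM and vehicle libraries all lie above 20.8% and the lower-dose libraries all below 20.4%, and the 3 µM library with low Bak1 and Bax is A17.

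Bcl2l11 rose with time in culture. In vehicle it had 37.6, 36.6 and 38.4 CPM at 6 h and 66.1, 52.1 and 56.3 CPM at 24 h, with no overlap, and rose by 0.63 on the log2 scale (SE 0.18, adjusted p = 0.00925). It was called in all 38 alternatives, with values of 0.54 to 0.71 when single libraries were left out. In CBD-treated cultures, a contrast added after the levels of Bcl2l11 had been seen, its lowest, median and highest values were 28.02, 37.6 and 51.3 CPM at 6 h and 45.9, 64.1 and 77.8 CPM at 24 h. Of the 12 libraries of 24 h, 11 lay above all 12 of 6 h, and the exception was library A16 of 3 µM. How many of all genes split in this way was not counted, and 53.6% of the 12790 genes tested were called in this contrast. The log2 fold change of Bcl2l11 was 0.80 (SE 0.09, adjusted p = 2.24e-09). The change with time in CBD cultures exceeded that in vehicle by 0.16 (SE 0.20, 95% confidence interval −0.22 to 0.55, adjusted p = 0.941), which was within the error.

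Vehicle cultures of 24 h and 6 h differed in 2 of 9 members, Bcl2l11 and Bid, where 26.7% of the 12790 genes tested were called. Bid was lower at 24 h (8.04 to 10.4 CPM against 4.42 to 32.9 CPM; log2 fold change −0.92, SE 0.39, adjusted p = 0.0920), and the value turned to 0.14 without A3. Bid was called in 6 of the 30 fits with 1 library left out, and without vehicle library A1 there were 4 members called, Bcl2 and Mcl1 among them. Mcl1 had 155, 153 and 205 CPM at 6 h and 144, 132 and 125 CPM at 24 h. All of its 24 h vehicle libraries lay below those of 6 h, but the log2 fold change of −0.36 (SE 0.16, adjusted p = 0.104) missed the threshold and was −0.19 (adjusted p = 0.505) without A3. Bcl2l11 and Mcl1 were thus the 2 of 9 members whose vehicle libraries did not overlap between times, where 31.8% of all genes did not.

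In CBD-treated cultures 3 of 9 members changed between 6 h and 24 h, where 53.6% of the 12790 genes were called. Beside Bcl2l11 these were Tmbim6, which fell by 0.33 on the log2 scale (SE 0.07, adjusted p = 0.000374), and Bax, which fell by 0.48 (SE 0.18, adjusted p = 0.0223). Tmbim6 had 99.7, 162 and 191 CPM as lowest, median and highest of 12 libraries at 6 h and 101, 130 and 160 CPM at 24 h. All 12 libraries of 24 h lay below the median of 6 h, but the ranges overlapped through a low library of 0.325 µM at 6 h, A14. Bax had 6.95, 12.1 and 16.1 CPM at 6 h and 4.12, 7.86 and 19.7 CPM at 24 h, and 10 of 12 libraries of 24 h lay below the median of 6 h. How many of all genes split like Tmbim6 or Bax was not counted. In vehicle the changes with time were −0.18 (SE 0.15, adjusted p = 0.435) for Tmbim6 and −0.21 (SE 0.34, adjusted p = 0.715) for Bax. The difference between CBD and vehicle in the change with time called 0 of 9 members against 0.235% of all genes (0 members at an unadjusted p below 0.05 and 0 by DESeq2), so no member was shown to change with time in CBD cultures otherwise than in vehicle.

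**Figure D4:**
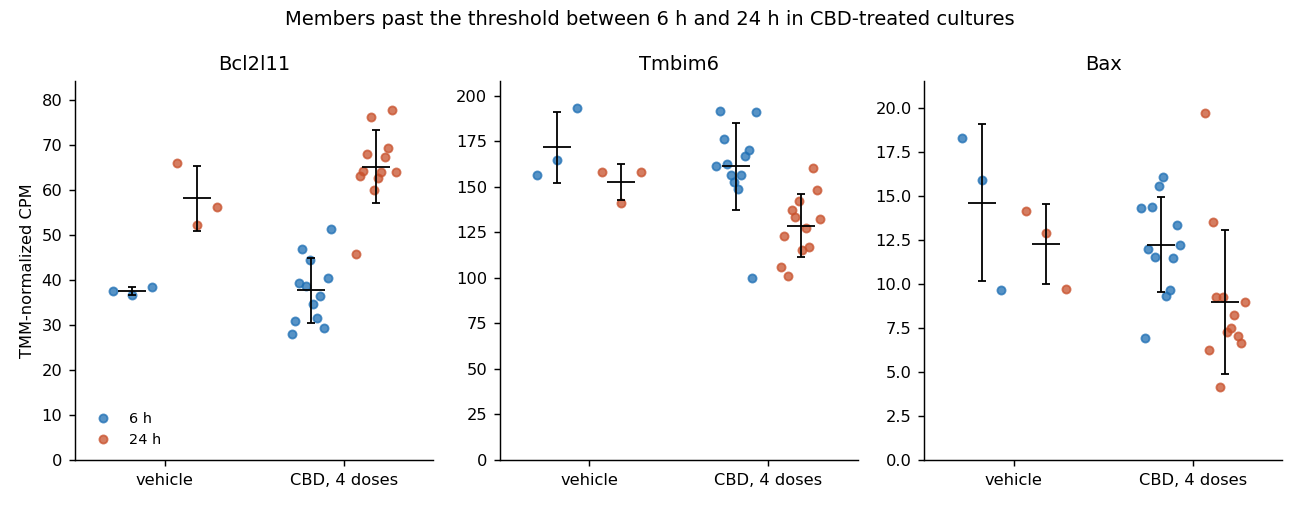
TMM-normalized CPM (y axis, from 0) of Bcl2l11, Tmbim6 and Bax in vehicle libraries (3 per time) and CBD libraries (12 per time, 4 doses together), blue 6 h and red 24 h, with mean ± SD in black. Bcl2l11 is higher at 24 h on both sides, and 11 of the 12 CBD libraries of 24 h lie above all CBD libraries of 6 h. The share of all genes with such a split was not counted.

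The ratio of the summed CPM of the 3 anti-apoptotic members to that of the 6 pro-apoptotic members was computed for each library. Its log2 ran from −0.10 to 0.67 over the 30 libraries with a median of 0.22. The sums were carried by few genes: Mcl1 made up 33.3% to 57.2% of the anti-apoptotic sum and Bad 49.6% to 68.4% of the pro-apoptotic sum. At 6 h the log2 ratio was 0.12, 0.04 and 0.63 in vehicle, the last in A3, and 0.37 as a mean of the CBD groups. At 24 h it was 0.12, −0.10 and 0.11 in vehicle, 0.23 ± 0.03, 0.20 ± 0.23 and 0.18 ± 0.08 (SD, n = 3) at the lower doses and 0.07 ± 0.15 at 3 µM. The mean over CBD groups exceeded vehicle by 0.10 at 6 h and 0.13 at 24 h, and 3 µM differed from the lower doses by −0.03 at 6 h and −0.14 at 24 h. No test was run on these differences. With Mcl1 and Bad left out of the sums the difference between CBD and vehicle at 6 h was 0.42. Its spread between libraries and the value at 24 h are not given, so no change with CBD is read from it.

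BCL-XL, the protein of Bcl2l1, holds BAX in check. The log2 ratio of the CPM of Bcl2l1 to Bax ran from 3.04 to 5.05 over the 30 libraries. At 24 h it was 3.40 ± 0.36 in vehicle, 4.13 ± 0.23, 4.25 ± 0.06 and 4.14 ± 0.79 with the lower doses in rising order and 3.65 ± 0.64 with 3 µM (SD, n = 3). The highest single value, 5.05 in library A20 of 1.5 µM, rested on 10 reads of Bax. The ratio was highest at the doses at which Bax, its denominator, was lowest, and so restates the Bax values given above. At 6 h it was 3.24 ± 0.23 in vehicle and 3.27 ± 0.09 to 3.65 ± 0.11 in the CBD groups. No ratio of Mcl1 to Pmaip1 is given, since Pmaip1 was at or under its limit of detection.

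**Figure D5:**
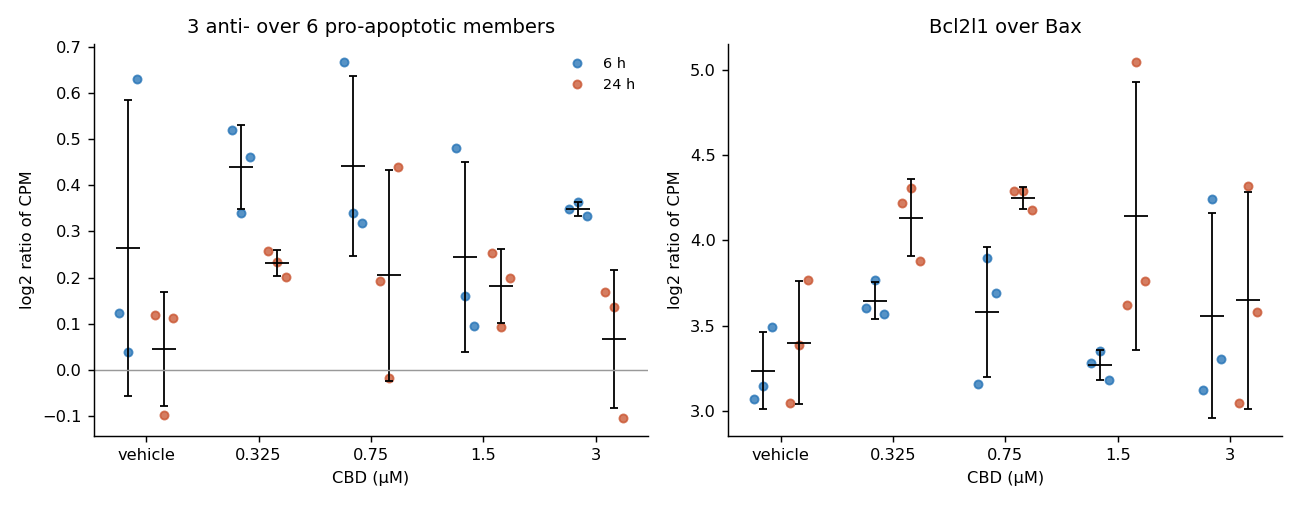
log2 ratio (y axis) of the summed CPM of 3 anti-apoptotic to 6 pro-apoptotic members (left) and of Bcl2l1 to Bax (right) in each library by CBD dose in µM (x axis) and time (blue 6 h, red 24 h), with mean ± SD of 3 libraries in black. The left ratio stays between −0.10 and 0.67, and the right one is highest at the 3 lower doses of 24 h.

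Other genes of the pathway were taken from 4 lists, 48 genes in all, holding further BCL-2 homologues, apoptosome components with caspases and their inhibitors, further TMBIM proteins, and proteins of mitochondrial membranes and MCL-1 turnover. None of the 37 tested at 6 h and none of the 36 tested at 24 h was called by edgeR against vehicle at any dose or for the mean of the doses. At an unadjusted p below 0.05 there were 1 to 4 of them per comparison at either time, where 6.73% to 10.3% of all genes had such a p, and DESeq2 called 1 gene at 6 h, in the mean of the doses, and 0 at 24 h. Between 3 µM and the lower doses at 24 h, 4 of 36 were called, against 10.5% of all genes, 2 in each direction. Huwe1, the ubiquitin ligase that marks MCL-1 for degradation (0.52, SE 0.12, adjusted p = 0.0124), and Aifm1, a flavoprotein of the mitochondrial intermembrane space (0.42, SE 0.14, adjusted p = 0.0763), were higher. Bmf, a BH3-only gene (−1.38, SE 0.42, adjusted p = 0.0472), was lower. Its level was low, with a mean of 3.31 CPM over all libraries and 2.20 CPM at 3 µM and 24 h. Huwe1 was also the 1 of 36 called for any difference among the doses at 24 h, where 1.93% of all genes and 0 of the 9 members were called (2 members at an unadjusted p below 0.05; DESeq2 called 1, Tmbim6). Without A17 that test called 3 members, Bak1, Bax and Tmbim6.

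With time in vehicle, 9 of 38 genes of these lists were called, 3 higher and 6 lower at 24 h. Birc2, an inhibitor of apoptosis protein (1.51, SE 0.29, adjusted p = 0.000317), and Bnip3l, a mitophagy receptor of the BCL-2 homologues (0.53, SE 0.16, adjusted p = 0.0125), were higher. Aifm1 (−0.58, SE 0.16, adjusted p = 0.00901), Ghitm, a TMBIM protein of mitochondria (−0.47, SE 0.13, adjusted p = 0.0107), and Vdac2, the outer membrane channel that binds BAK (−0.36, SE 0.11, adjusted p = 0.0169), were lower. In CBD-treated cultures 23 of 38 were called between the times, 9 higher and 14 lower, against 53.6% of all genes. There, the TMBIM protein Grina was higher at 24 h (0.43, SE 0.07, adjusted p = 4.96e-06), and Fbxw7, another ligase for MCL-1, was lower (−0.47, SE 0.08, adjusted p = 8.47e-06), as were Mtch2 (−0.37, SE 0.06), a receptor for BID at mitochondria, and Aifm1 (−0.45, SE 0.08). Bmf, with the low level given above, was higher (1.50, SE 0.28, adjusted p = 3.44e-05), as was Bcl2l11.

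The genes whose level followed that of a called member most closely over the 10 group means were found among 8673 genes with at least 10 CPM. For Bcl2l11 they were Tgm2 (Pearson r = 0.99), Xab2 (0.99) and Mettl27 (0.98), for Bax Xpo4 (0.98), Klf3 (0.97) and Gm5781 (0.97), for Bak1 Usp50 (0.96), Aldh2 (0.96) and Gm8430 (0.95), for Tmbim6 Atxn3 (0.98), Ctdp1 (0.97) and Plau (0.95), and for Bid Prkcd (0.88), Sf1 (0.88) and Prkab1 (0.88). These are descriptions over 10 points that share libraries and depth between genes. The 3 highest of 8673 values were taken for each member, so r is high by selection. For Bid, the vehicle mean of 6 h, 16.7 CPM, includes library A3 at 32.9 CPM.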

How the data were processed

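RNA of mHypoA-2/12 cells was sequenced in 30 libraries by 3′ mRNA-Seq (QuantSeq FWD). According to the submitters' processing notes and the study's methods, the authors trimmed reads with Flexbar, checked them with FastQC 0.11.9, aligned them to GRCm39 with STAR 2.7.5c and counted them per Ensembl gene with HTSeq 1.99.2; the notes also name DESeq2. The deposited values are raw read counts per gene, 1 file per library. The strand setting is not given in the sources used here, and molecular identifiers were not counted. Rows that name no gene were left out of library sizes (reads outside genes: 17.7% to 22.2%; ambiguous reads: 4.74% to 5.08%). Symbols and positions came from GENCODE M21 (GRCm38), which matched 51948 of 56941 identifiers; coordinates are of that build and not of the authors' build.

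Counts were tested with edgeR 4.0.16 (R 4.3.3) by the quasi-likelihood F-test after its default filter on low counts and TMM normalization. There was 1 fit of the 15 libraries of each time and 1 of all 30 libraries for changes with time, 1 mean per group and no covariate. P-values were adjusted over all genes tested (Benjamini-Hochberg) and called below 0.1, as in the study. Confidence intervals are the estimate ± 1.96 SE, with the SE taken as the absolute log2 fold change divided by the square root of F. They can be narrower than the F-test implies. For Bak1 at 0.325 µM and 6 h the interval was −1.07 to −0.01, where the F-test gave an unadjusted p of 0.0569. The labels name 3 libraries per group but neither their cultures nor a batch, so p-values measure the spread between these libraries, and a batch and a group cannot be told apart. Alternatives were DESeq2 1.42.0, its size factors in edgeR, no filter, at least 10 reads in every library, mitochondrial genes left out, the share of reads outside genes or log2 reads on genes as a covariate, a fit of only the groups compared, and each library left out in turn. The fits were tested on simulated data. All 10 members were named, and of the pathway lists at most 5 called genes per contrast by p, beside the marker genes. The members, lists and contrasts were chosen with earlier results of these data known, and the change with time in CBD-treated cultures was added after the levels of Bcl2l11 were seen. Figures were drawn with matplotlib 3.10.9 (Python 3.11.15, pandas 2.3.3). For 3 µM against the lower doses at 24 h, 1 called gene of the pathway lists is counted and not otherwise reported here.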

Additional observations from a re-analysis of the deposited data

How the results depend on the processing

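At each dose against vehicle, the count of members called stayed at 0 under the alternatives run, except for Bid at 0.325 µM and 6 h with the percentage of reads off genes in the fit (1 called) and at 3 µM and 24 h when single libraries were left out (0 to 1). Leaving out single libraries gave 0 to 1 for the mean of the doses at 6 h, 0 to 3 for any difference among the doses at 24 h, 0 to 5 for 3 µM against the lower doses at 24 h and 1 to 4 for vehicle 24 h against 6 h. DESeq2 called 1 member for any difference among the doses at 24 h and 1 for vehicle over time, where 2 were called in the fit reported, log2 reads as a covariate gave 4 and a fit of only the 6 vehicle libraries gave 1. For 3 µM against the lower doses at 24 h, either covariate gave 0. Without library A3, Bid reversed to 0.29 (mean of the doses, 6 h) and 0.14 (vehicle over time); over all libraries left out it ran from −1.16 to 0.29 and from −1.31 to 0.14. The balance of anti- and pro-apoptotic members at 6 h, CBD minus vehicle, moved to 0.42 without Mcl1 and Bad; with single libraries left out it ran from −0.0083 to 0.29, that of 3 µM minus lower doses from −0.05 to 0.01, and at 24 h these ran from 0.06 to 0.16 and from −0.19 to −0.05. The causes were not tested. Of the other values of single members, 434 kept direction and side of the threshold, 13 passed it and 43 lost it. No paired analysis was possible because the labels give no replicate numbers that groups share. Bax and Bid had 8 to 119 reads per library, which limits the precision of their values.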
